A study of Mus musculus with 4 samples.

Results

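Goblet cells of the intestinal epithelium make and secrete mucus. The genes described here are 10 products of these cells, listed as mucus components and mucin-folding genes. Each was taken by name from the deposited table, in which it has 1 row. They are 10 of 29871 rows. The secreted components are MUC2, FCGBP, CLCA3, ZG16, SPINK4, TFF3 and RETNLB. AGR2 is a folding enzyme, KLK1 is a serine protease, and CREB3L1 is a transcription factor. The table spells symbols in capitals. Its row CLCA3 carries an older name of the gene that RefSeq now lists as Clca1, and the separate row CLCA1 was not taken for it. By RefSeq, Muc2, Fcgbp, Zg16 and Klk1 lie on chromosome 7, Agr2 on 12, Clca1 on 3, Spink4 on 4, Tff3 on 17, Retnlb on 16 and Creb3l1 on 2, all as protein-coding genes.

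The RNA came from adenomas of the mouse small intestine, in 2 groups with 2 libraries each. The first group is labelled PAF KO; APC Min/+, a PAF knockout on the Apc Min background, and the second APC Min/+, with PAF wild type, called control here. All 4 libraries therefore come from mice that carry the Min allele, a truncating mutation in 1 copy of the tumour suppressor Apc that leads to many intestinal adenomas. The labels used here do not describe the design of the PAF allele, the age and strain of the mice, or whether a library holds 1 adenoma or a pool, and normal mucosa was not analysed here. The labels do not say that the libraries of a group came from separate animals, so p-values measure the spread between these libraries only.

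Intestinal mucus is built on the gel-forming mucin encoded by MUC2, a very long protein that is cross-linked through disulfide bonds in the endoplasmic reticulum, decorated with O-linked sugars in the Golgi and stored in granules. AGR2 is a protein disulfide isomerase needed for that folding step, and CREB3L1 is a membrane-bound factor of the endoplasmic reticulum that, in mice, takes part in the maturation of goblet cells. The other secreted products are released with the mucin. In Apc-driven adenomas goblet cells are usually fewer than in normal mucosa.

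The upstream sequences of 4 members are in the RefSeq promoter table (build GRCm38.p6, which differs from the build of the deposited values). These 4 are shown because no other member has a sequence there. Of them, MUC2, AGR2 and KLK1 had the smallest p-values of the 10 genes, all with higher values in both PAF KO libraries. FCGBP lay above the controls in PAF KO library 1 and below them in library 2. Each is the 250 bases before the annotated start, 5′ to 3′ on the strand of the gene, which is the plus strand for all 4. Capitals mark matches to 5 short motifs, searched on both strands: TGACGT, a core read by CREB3L1 and XBP1; AGATAA, read by GATA factors; TTTATNG, read by CDX factors; CAGCTG, an E-box read by ATOH1; and TATAAA, the TATA box.
MUC2, chr7:141690090-141690339: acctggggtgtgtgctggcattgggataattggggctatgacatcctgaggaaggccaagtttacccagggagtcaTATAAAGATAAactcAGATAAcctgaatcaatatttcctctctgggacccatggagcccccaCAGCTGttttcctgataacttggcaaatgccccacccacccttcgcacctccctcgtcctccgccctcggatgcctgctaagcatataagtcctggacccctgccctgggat
AGR2, chr12:35992675-35992924: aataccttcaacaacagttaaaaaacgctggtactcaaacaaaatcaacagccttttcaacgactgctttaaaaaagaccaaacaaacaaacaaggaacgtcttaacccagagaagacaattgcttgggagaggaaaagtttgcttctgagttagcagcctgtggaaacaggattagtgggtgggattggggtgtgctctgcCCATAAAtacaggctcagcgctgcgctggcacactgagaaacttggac
KLK1, chr7:44225110-44225359: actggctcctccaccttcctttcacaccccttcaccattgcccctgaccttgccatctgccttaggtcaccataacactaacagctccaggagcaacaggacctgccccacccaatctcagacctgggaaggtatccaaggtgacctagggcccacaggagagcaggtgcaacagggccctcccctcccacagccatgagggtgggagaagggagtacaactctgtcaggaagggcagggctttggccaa
FCGBP, chr7:28070986-28071235: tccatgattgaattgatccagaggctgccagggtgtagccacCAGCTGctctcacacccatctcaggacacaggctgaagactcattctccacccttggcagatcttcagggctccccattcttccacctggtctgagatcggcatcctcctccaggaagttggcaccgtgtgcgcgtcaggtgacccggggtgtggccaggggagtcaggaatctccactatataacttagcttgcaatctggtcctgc

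The MUC2 sequence held AGATAA at 2 places, 169 to 164 and 159 to 154 bases before the start. The first shares a base with TATAAA at 174 to 169. It also held CAGCTG at 112 to 107, and FCGBP held CAGCTG at 208 to 203. AGR2 held the CDX motif on the minus strand, 48 to 42 bases before the start, and KLK1 held none of the 5 motifs. Over 32851 mouse promoters, windows of the same length held TGACGT in 6.47%, AGATAA in 9.99%, TTTATNG in 9.81%, CAGCTG in 13% and TATAAA in 12.4%. These are matches of letters, which say nothing of whether a factor was bound. The promoters of the other 6 members were not analysed here.

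The values are FPKM, fragments mapped to a gene scaled to transcript length and to the size of the library. Low values placed the depth at about 15600000 and 24200000 fragments in the PAF KO libraries and 13000000 and 17500000 in the controls. Over the 13716 tested rows the median absolute log2 difference was 0.49 between the PAF KO libraries and 0.088 between the controls. The gene PAF itself (Pclaf in RefSeq) read 4.13 and 11.4 FPKM in the PAF KO libraries, against 17.9 and 17.8 FPKM in the controls, so its transcript was lower but present. Xist, the RNA of the inactive X chromosome in females, read 46.4 FPKM in PAF KO library 2. There the Y-linked gene Eif2s3y was listed at 0, while it lay between 26 and 31.7 FPKM in PAF KO library 1 and both controls. Sex thus differs within the PAF KO group, and each result below is given per library. The 14 general epithelial markers were present in every library and summed to 9516 and 9401 FPKM in the PAF KO libraries, against 9439 and 9318 FPKM in the controls. Still, 9 of the 14 were below both controls in both PAF KO libraries, where 30.2% of all tested rows were. Of 8 colonic genes, Car1 and Hoxd13 were listed at 0 in every library, and 4 were tested. Of these 4, 1 was above both controls in both PAF KO libraries, 0 were below and 3 overlapped, where 21.5% of all tested rows were above. The 8 summed to 34.4 and 123 FPKM in the PAF KO libraries, against 48 and 50.7 FPKM in the controls. Car4 read 30.3 and 79.3 FPKM in the PAF KO libraries, against 40.8 and 43.4 FPKM in the controls.

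The 10 mucus genes did not share 1 pattern. MUC2 and KLK1 were higher in both PAF KO libraries at a similar size, and AGR2, SPINK4 and TFF3 were higher in both at different sizes. RETNLB and CLCA3 were far higher in PAF KO library 2 than in library 1. CREB3L1 lay above the controls in library 1 and between them in library 2. FCGBP and ZG16 lay above the controls in library 1 and below them in library 2. All 10 members passed the filter of a mean of at least 1 FPKM, and 0 of the 10 were called by limma at an adjusted p under 0.05, where the background was 0.0729% of tested rows. At an unadjusted p under 0.05 limma gave 3 members, MUC2, AGR2 and KLK1, all higher, where the background in either direction was 13.2%. The background held more lower rows (1338) than higher rows (472). With 1 PAF KO library left out, the lone library is assumed to vary like the controls, and the calls changed. The PAF KO libraries differed more than the controls did, by a median of 0.49 against 0.088 on the log2 scale. Calls from these fits are therefore too easily reached. Without library 1, limma called 7 members higher and 2 lower, where the background was 34.1% of tested rows higher and 27.1% lower, so that most rows were called. Without library 2 it called 4 members higher and 1 lower, where the background was 6.27% higher and 14.4% lower. MUC2, AGR2 and KLK1 were called higher both ways, with adjusted p-values of 0.00545, 0.00474 and 0.032 without library 1 and 0.0196, 0.0184 and 0.0463 without library 2.

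Both PAF KO libraries lay above both controls for 6 of the 10 members, MUC2, AGR2, SPINK4, TFF3, RETNLB and KLK1, where the background was 21.5% of tested rows. Both lay below both controls for 0 members, with a background of 30.2%. PAF KO library 1 alone was above both controls for 9 members, with a background of 31.2%, and below them for CLCA3, with a background of 56.2%. RETNLB is among these 9 and the 6 named, although library 1 was level with the controls (27.5 FPKM, against 27.3 and 27.1 FPKM). PAF KO library 2 alone was above both controls for 7 members, with a background of 51.3%, and below them for FCGBP and ZG16, with a background of 41.7%. The median log2 fold change over the members was 0.65, and 0.0035 over all tested rows. Measured from the control mean, the members' median was 0.71 in PAF KO library 1 and 0.97 in library 2, where all tested rows had medians of -0.11 and 0.087. An exact permutation test of 2 libraries against 2 cannot give a p below 0.333, so none is given for single genes.

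**Figure D1:**
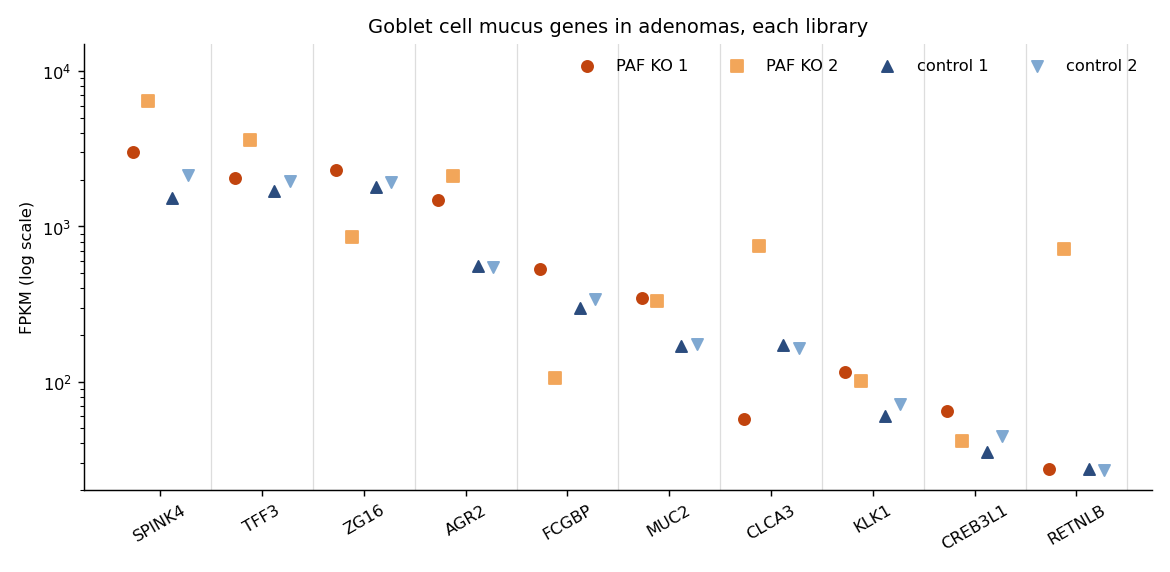
FPKM of the 10 mucus genes in each library, on a log axis, with genes ordered by level. Circles and squares are PAF KO libraries 1 and 2, and triangles pointing up and down are controls 1 and 2. The PAF KO points lie close together for MUC2 (346 and 332) and KLK1 (116 and 101) and far apart for CLCA3 (57.3 and 752) and RETNLB (27.5 and 712).

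MUC2, the gel-forming mucin itself, read 346 and 332 FPKM in the PAF KO libraries, against 170 and 174 FPKM in the controls. The groups were well separated and the PAF KO libraries agree within 0.057 on the log2 scale, the smallest difference between them among the 10 members. The means were 339 ± 9.45 FPKM in PAF KO adenomas and 172 ± 3.25 FPKM in controls (SD, n = 2 each), a log2 fold change of 0.98 (SE 0.176; limma adjusted p = 0.256). Leaving out any 1 library moved this value by less than its SE, with 0.95 as the lowest. In these bulk samples, more goblet cells and more RNA per goblet cell cannot be told apart, here and for every gene below.

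AGR2, the disulfide isomerase of the mucin, read 1480 and 2105 FPKM in the PAF KO libraries, against 554 and 548 FPKM in the controls. Its controls differed by 0.015 on the log2 scale, and both PAF KO libraries lay far above them. The log2 fold change of 1.68 (SE 0.283; limma adjusted p = 0.243) was larger than that of MUC2. Relative to MUC2 within a library, AGR2 stood at 4.28 and 6.33 in the PAF KO libraries, against 3.27 and 3.15 in the controls. Its paralogue Agr3 read 5.5 and 6.32 FPKM in the PAF KO libraries, against 6.72 and 5.06 FPKM in the controls, so the groups overlapped for Agr3.

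KLK1, tissue kallikrein, a serine protease that releases kinins, read 116 and 101 FPKM in the PAF KO libraries, against 60.3 and 71.5 FPKM in the controls. The groups did not overlap, with a log2 fold change of 0.71 (SE 0.192; limma adjusted p = 0.319). KLK1 followed MUC2 more closely than any other member: by Euclidean distance between the 4 log2 values less their mean, it ranked 37 of 7495 rows, and the next member, TFF3, ranked 915. Its ratio to MUC2 was 0.335 and 0.305 in the PAF KO libraries, against 0.356 and 0.411 in the controls. KLK1 belongs to a cluster of closely related genes, and 28.4% of the 50-base windows of its longest GENCODE transcript also occur in transcripts of other genes, so its level is uncertain. The copy that shares most windows, Klk1b5, was listed at 0 in both PAF KO libraries and at 0 and 0.0789 FPKM in the controls.

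CREB3L1 read 64.4 and 41.4 FPKM in the PAF KO libraries, against 35.3 and 44.4 FPKM in the controls. PAF KO library 1 was the highest of the 4, while library 2 lay between the controls. The log2 fold change was 0.38 (SE 0.295; limma adjusted p = 0.579), and it was 0.69 without PAF KO library 2 and 0.063 without PAF KO library 1. AGR2, in contrast, was highest in library 2.

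**Figure D2:**
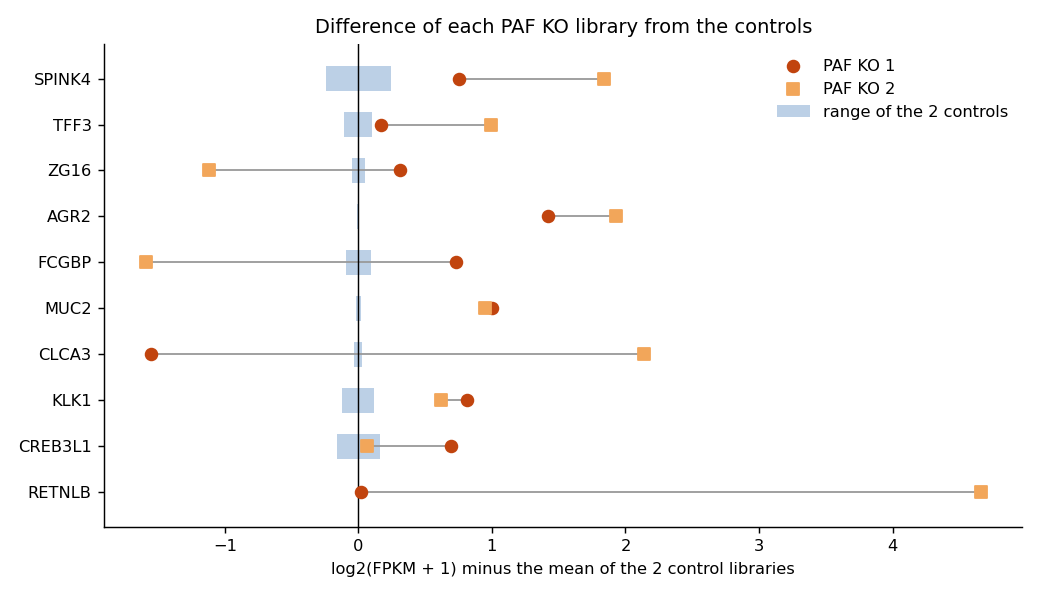
Difference of each PAF KO library from the control mean on the log2(FPKM + 1) scale, with genes ordered by level. Circles are PAF KO library 1, squares are PAF KO library 2, and bars span the 2 controls. KLK1 (0.81 and 0.62) and MUC2 have their PAF KO points side by side, while CLCA3 (-1.55 and 2.14), FCGBP (0.73 and -1.59) and ZG16 (0.31 and -1.12) have them on opposite sides of the controls.

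SPINK4, a small secreted protein of the Kazal type of protease inhibitors, was the most abundant member in both PAF KO libraries. It read 3021 and 6440 FPKM in the PAF KO libraries, against 1521 and 2134 FPKM in the controls, and in PAF KO library 2 it ranked 4 among all rows of the table. The groups did not overlap, but the controls were also farther apart than for any other member, by 0.49 on the log2 scale. This gave a log2 fold change of 1.29 (SE 0.505; limma adjusted p = 0.398), and it was 0.75 without PAF KO library 2 and 1.84 without PAF KO library 1.

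TFF3, the trefoil peptide of goblet cells that protects and repairs the epithelium, read 2049 and 3614 FPKM in the PAF KO libraries, against 1690 and 1958 FPKM in the controls. PAF KO library 1 was only just above the higher control. Its log2 fold change was 0.58 (SE 0.394; limma adjusted p = 0.547). Without PAF KO library 2 it was 0.17, and under quantile normalization TFF3 was the 1 of the 6 separated members whose groups overlapped (log2 fold change 0.24).

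RETNLB, a resistin-like peptide of goblet cells with activity against bacteria and worms, read 27.5 and 712 FPKM in the PAF KO libraries, against 27.3 and 27.1 FPKM in the controls. Only PAF KO library 2 was high, and the other 3 libraries were level. The log2 fold change of 2.34 (SE 1.69; limma adjusted p = 0.561) therefore describes neither PAF KO library: it was 0.017 without library 2 and 4.66 without library 1. The 712 FPKM were 26.2 times the control mean. With about 247 to 330 fragments in the 3 low libraries and 11985 in PAF KO library 2, counting error is small beside this difference. None of the 50-base windows of its longest GENCODE transcript occurs in transcripts of another gene.

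CLCA3, gob-5, a secreted metalloprotease that acts on the mucin network, showed the widest split around the controls. It read 57.3 and 752 FPKM in the PAF KO libraries, against 173 and 166 FPKM in the controls. PAF KO library 1 was the lowest of the 4 and library 2 the highest, at 0.338 and 4.43 times that of the controls on average. Over both libraries the fold change was 0.30 on the log2 scale (SE 1.35; limma adjusted p = 0.918), with -1.55 without PAF KO library 2 and 2.14 without PAF KO library 1.

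FCGBP, a large mucus protein with von Willebrand domains that associates with MUC2, split the other way. It read 531 and 105 FPKM in the PAF KO libraries, against 299 and 340 FPKM in the controls, so that library 1 was the highest of the 4 and library 2 the lowest. Over both, the log2 fold change was -0.43 (SE 0.861; limma adjusted p = 0.809), with 0.73 without PAF KO library 2 and -1.59 without PAF KO library 1. In its longest transcript, 8.55% of windows also occur in its neighbour 9530053A07Rik, which read at most 0.128 FPKM in any library.

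ZG16, a lectin-like protein that binds the wall of Gram-positive bacteria, had the same split at a smaller size. It read 2310 and 853 FPKM in the PAF KO libraries, against 1792 and 1925 FPKM in the controls. Its log2 fold change was -0.40 (SE 0.572; limma adjusted p = 0.73), with 0.31 without PAF KO library 2 and -1.12 without PAF KO library 1. In library 2, where MUC2 was higher than in the controls, ZG16 and FCGBP were lower, so secreted components differed in direction within 1 library.

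**Figure D3:**
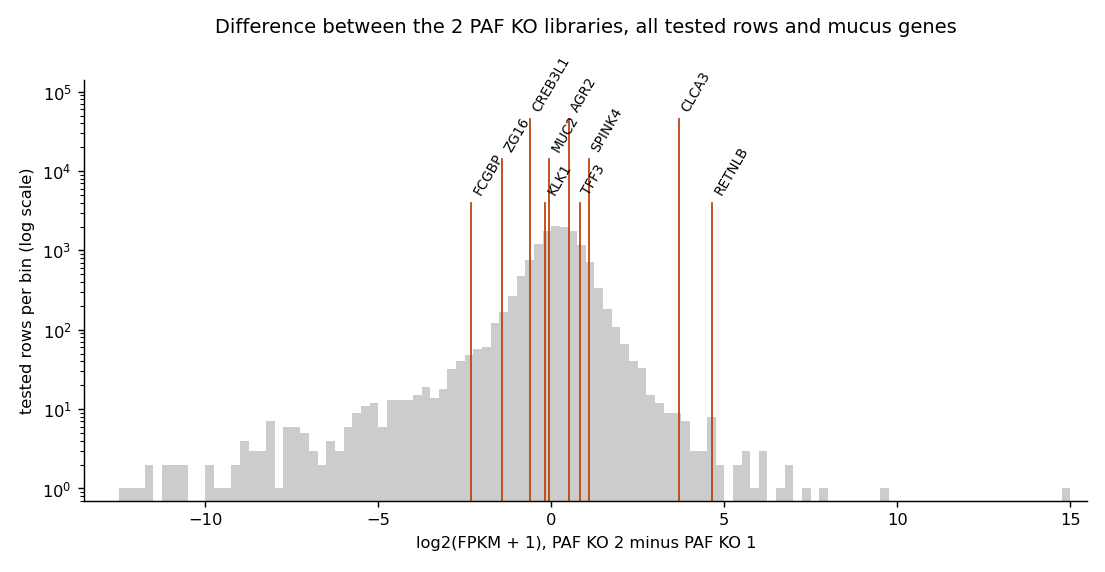
Difference between PAF KO library 2 and PAF KO library 1 on the log2(FPKM + 1) scale. Grey bars count the 13716 tested rows on a log axis, and red lines mark the 10 mucus genes. RETNLB (4.64) and CLCA3 (3.69) stand far to the right, FCGBP (-2.32) and ZG16 (-1.44) to the left, and MUC2 (-0.057) near 0.

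Between the PAF KO libraries, 3 members (CLCA3, SPINK4 and RETNLB) were higher in library 2 than in library 1 by a log2 difference of 1 or more, where the background was 11.3% of tested rows. Another 2 members (FCGBP and ZG16) were lower in library 2 by as much, with a background of 7.33%. By the size of this difference RETNLB ranked 140, CLCA3 209 and FCGBP 463 of 13716 rows, while MUC2 ranked 12764. The median size was 0.96 over the members, and 0.49 over all tested rows. With 1 library of each sex in the PAF KO group, sex, animal and any other difference between these libraries cannot be told apart.

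Markers of other cells also differed between the PAF KO libraries. Their counts, here and in the next paragraph, are to be read beside the background of 21.5% above and 30.2% below. Summed over the 9 Paneth cell markers with a row, of 11 listed, the level was 2849 and 7677 FPKM in the PAF KO libraries, against 3525 and 3850 FPKM in the controls, and 3 of the 9 tested were above both controls in both PAF KO libraries and 1 below. Ang4, a product of Paneth and goblet cells, weighed heavily in that sum, at 103 and 3248 FPKM in the PAF KO libraries, against 393 and 451 FPKM in the controls. The sum is therefore not a measure of Paneth cells alone. The defensin row DEFA5 read 99.3 FPKM in PAF KO library 2 and was listed at 0 in the other 3. Pla2g2a, the 1 below, read 967 and 399 FPKM in the PAF KO libraries, against 1057 and 1260 FPKM in the controls. Enterocyte markers (12 of 12 with a row, 4 below both controls in both) summed to 16301 and 1799 FPKM in the PAF KO libraries, against 9302 and 10140 FPKM in the controls. Smooth muscle markers (8 of 8, 7 above) summed to 286 and 827 FPKM in the PAF KO libraries, against 241 FPKM in each control. Leukocyte markers (7 of 8 tested, 1 above and 2 below) summed to 14.5 and 44.6 FPKM in the PAF KO libraries, against 22 and 21.8 FPKM in the controls. Cd3e and Cd8a, the 2 below, were at most 2.31 FPKM. Ptprc read 1.73 and 10.8 FPKM in the PAF KO libraries, against 4.27 and 3.06 FPKM in the controls. Csf1r read 7.64 and 18 FPKM, against 9.07 and 9.08 FPKM, so both were highest in PAF KO library 2. Fibroblast markers (6 of 6 above) summed to 332 and 685 FPKM in the PAF KO libraries, against 262 and 266 FPKM in the controls. The part of these cells in the split of RETNLB, CLCA3, FCGBP and ZG16 was not tested.

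Neutrophil markers were higher in both PAF KO libraries, as MUC2, AGR2 and KLK1 were. Of 8 listed, 7 had a row and 4 were tested, 4 of these were above both controls, and the sum was 169 and 113 FPKM in the PAF KO libraries, against 19.3 and 31.1 FPKM in the controls. Its part in those results was not tested. Tuft cell markers summed to 88 and 121 FPKM in the PAF KO libraries, against 141 and 143 FPKM in the controls. Most of that sum was Avil, at 69.8 and 66 FPKM in the PAF KO libraries, against 110 FPKM in each control. Of the 7 tuft cell markers tested, Avil was the 1 below both controls, 1 was above and 5 overlapped. Enteroendocrine markers (7 tested, 2 above and 2 below) summed to 86.5 and 84.5 FPKM in the PAF KO libraries, against 96.2 and 107 FPKM in the controls. The 7 markers of pancreatic acinar cells, which also express KLK1, were below 1 FPKM in every library, and 5 of them were listed at 0.

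Within a library the ratio to MUC2 shows the mixture of products. The summed level of the 10 members was 10001 and 15056 FPKM in the PAF KO libraries, against 6321 and 7389 FPKM in the controls, which is 1.84% and 2.47% of all FPKM in the PAF KO libraries and 1.2% and 1.38% in the controls. SPINK4, TFF3 and ZG16 made up 73.8% and 72.4% of that sum in the PAF KO libraries, against 79.1% and 81.4% in the controls. ZG16 stood at 6.68 and 2.57 times MUC2 in the PAF KO libraries, against 10.6 and 11.1 times in the controls, so both PAF KO libraries were lower on this scale. In PAF KO library 1 ZG16 itself was above the controls, and the ratio was lower because MUC2 was higher. TFF3 stood at 5.93 and 10.9 times MUC2 in the PAF KO libraries, against 9.97 and 11.2 times in the controls, and the groups overlapped. RETNLB stood at 0.0796 and 2.14 times MUC2 in the PAF KO libraries, against 0.161 and 0.155 times in the controls. CLCA3 stood at 0.166 and 2.26 times MUC2 in the PAF KO libraries, against 1.02 and 0.954 times in the controls. For both genes the ratio in PAF KO library 1 lay below the controls and that in library 2 above them. In library 1 only CLCA3 was itself lower than in the controls. RETNLB was level there, at 27.5 FPKM against 27.3 and 27.1 FPKM, and its lower ratio came from the higher MUC2. Levels are compared here per length, and the longest GENCODE transcript of Muc2, at 2926 bases, is short for a very long mucin. No source used here gives the length the authors used for it, so ratios to MUC2 hold between libraries and not as molar amounts.

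**Figure D4:**
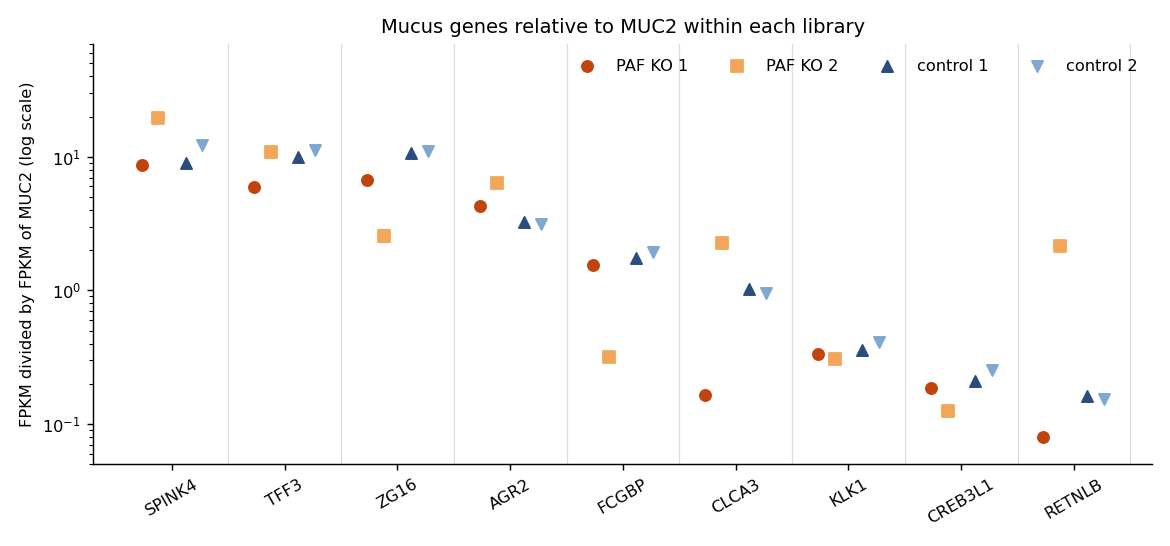
FPKM of 9 mucus genes divided by the FPKM of MUC2 in the same library, on a log axis. Circles and squares are PAF KO libraries 1 and 2, and triangles pointing up and down are controls 1 and 2. AGR2 lies above both controls in both PAF KO libraries, and ZG16, FCGBP, KLK1 and CREB3L1 lie below them.

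The rows most like MUC2, by the same distance over 4 libraries and among rows of at least 10 FPKM, were not members. They were Gstt3 (distance 0.103), Cldn15 (0.108), Abcc3 (0.137), Sfn (0.139) and Slc16a1 (0.172). Cldn15, a claudin of the small intestine, read 92.6 and 85.4 FPKM in the PAF KO libraries, against 47.6 and 44.8 FPKM in the controls (log2 fold change 0.93, SE 0.162; limma adjusted p = 0.248). Sfn, a 14-3-3 protein of epithelia, read 129 and 130 FPKM in the PAF KO libraries, against 71.8 and 70.3 FPKM in the controls.

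The 14 listed factors of intestinal cell fate include both drivers and a repressor of the goblet fate, so their median has no set direction. Of them, 13 were tested, 0 were called, 3 were above both controls in both PAF KO libraries and 4 were below, with a median log2 fold change of 0.037. These counts are near the background of 21.5% above and 30.2% below, against which the counts of the other gene lists below are also to be read. Spdef, which drives goblet cell maturation, read 43 and 44.8 FPKM in the PAF KO libraries, against 27.9 and 29.5 FPKM in the controls (log2 fold change 0.60, SE 0.152; limma adjusted p = 0.309). As for MUC2, its PAF KO libraries lay close together. Hes1, the Notch target that represses the secretory fate, read 52.1 and 42.4 FPKM in the PAF KO libraries, against 73.6 and 67.7 FPKM in the controls. Foxa1, a forkhead factor of secretory cells, read 35.8 and 45.9 FPKM in the PAF KO libraries, against 69.5 and 65.2 FPKM in the controls. Atoh1, which starts the secretory lineage, read 8.03 and 13.8 FPKM in the PAF KO libraries, against 7.26 and 6.43 FPKM in the controls.

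Of 26 enzymes and transporters that build O-linked sugars on mucins, 24 were tested and 0 were called. In both PAF KO libraries 16 of the 24 were above both controls and 4 were below, where the background was 21.5% above and 30.2% below, and 4 overlapped. The median log2 fold change was 0.36, with 0.24 in PAF KO library 1 and 0.57 in library 2. Gcnt3, which makes branched core structures of mucin sugars, read 33.8 and 37.3 FPKM in the PAF KO libraries, against 22.3 and 21.7 FPKM in the controls (log2 fold change 0.67, SE 0.156; limma adjusted p = 0.294). The sialyltransferase St3gal6 read 46.8 and 47.7 FPKM in the PAF KO libraries, against 28.7 and 30.1 FPKM in the controls. Galnt7 read 24.6 and 49.1 FPKM in the PAF KO libraries, against 15.6 and 16.4 FPKM in the controls. The sulfotransferase Gal3st2 was among the 4 below, at 3.62 and 3.06 FPKM in the PAF KO libraries, against 4.66 and 5.02 FPKM in the controls.

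**Figure D5:**
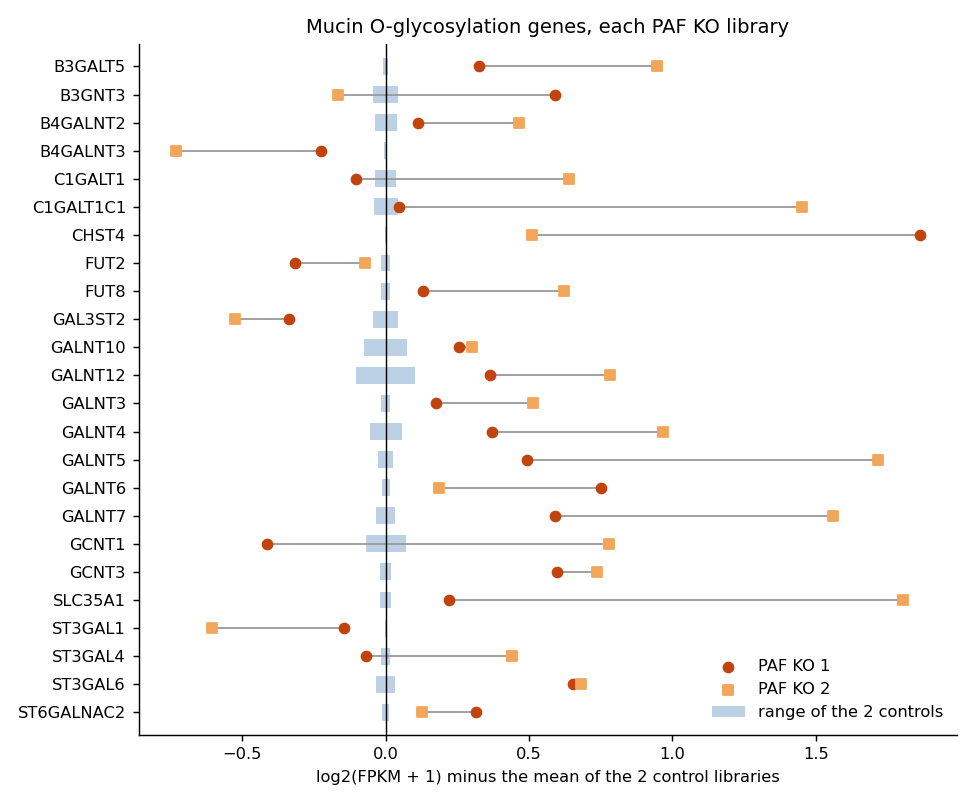
Difference of each PAF KO library from the control mean on the log2(FPKM + 1) scale for the 24 tested O-glycosylation genes, in alphabetical order. Circles are PAF KO library 1, squares are PAF KO library 2, and bars span the 2 controls. Both PAF KO points lie right of the bar for 16 genes and left of it for 4.

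Of 26 genes of folding and stress sensing in the endoplasmic reticulum, 26 were tested and 0 were called. In both PAF KO libraries 13 were above both controls and 2 were below, while 11 overlapped, with a median log2 fold change of 0.33. The median was 0.081 in PAF KO library 1 and 0.53 in library 2. Kdelr3, which returns proteins to the endoplasmic reticulum, read 22.1 and 19.1 FPKM in the PAF KO libraries, against 11.6 and 12.5 FPKM in the controls. Creb3l4, a relative of CREB3L1, read 26.8 and 29.9 FPKM in the PAF KO libraries, against 21.8 and 20.4 FPKM in the controls. Pdia6, a disulfide isomerase as AGR2 is, read 129 and 263 FPKM in the PAF KO libraries, against 104 and 101 FPKM in the controls. Xbp1, a factor of the unfolded protein response, read 182 and 177 FPKM in the PAF KO libraries, against 181 and 156 FPKM in the controls, and differed by less than its spread (log2 fold change 0.092, SE 0.185).

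Of 22 genes of granule packing, secretion and mucus release, 21 were tested, 0 were called, 8 were above both controls in both PAF KO libraries and 6 were below (median log2 fold change 0.11), where the background was 21.5% above and 30.2% below. Cftr, the chloride and bicarbonate channel that lets mucus unfold, read 38.5 and 54.9 FPKM in the PAF KO libraries, against 14.9 and 10.7 FPKM in the controls (log2 fold change 1.78, SE 0.284; limma adjusted p = 0.242). Nlrp6, an innate sensor linked to goblet cell secretion in mice, read 33.5 and 29.1 FPKM in the PAF KO libraries, against 20.7 and 19.4 FPKM in the controls. Ano7 read 5.69 and 6.66 FPKM in the PAF KO libraries, against 3.68 and 3.7 FPKM in the controls.

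Of 13 other mucins and mucin-like genes, 12 had a row and 8 were tested, 0 were called, 3 were above both controls in both PAF KO libraries and 0 below (median log2 fold change 0.019). Muc13, a membrane mucin, read 357 and 272 FPKM in the PAF KO libraries, against 243 and 253 FPKM in the controls. Emcn, an endothelial mucin-like protein, read 10.9 and 13.2 FPKM in the PAF KO libraries, against 5.34 and 6.19 FPKM in the controls (log2 fold change 0.95, SE 0.19; limma adjusted p = 0.273). Muc20 read at most 1.49 FPKM. The gastric gel-forming mucin Muc6 read 214 and 51.6 FPKM in the PAF KO libraries, against 116 and 117 FPKM in the controls, a split of the same direction as that of FCGBP and ZG16.

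Of 26 other secreted proteins of goblet cells and mucus, 21 were tested, 0 were called, 9 were above both controls in both PAF KO libraries and 2 were below (median log2 fold change 0.26). Dmbt1, which encodes a scavenger receptor of mucosal surfaces, read 441 and 427 FPKM in the PAF KO libraries, against 96.8 and 97.3 FPKM in the controls (log2 fold change 2.15, SE 0.171; limma adjusted p = 0.175). Oit1, also known as Fam3d, read 126 and 114 FPKM in the PAF KO libraries, against 54.8 and 45.5 FPKM in the controls. Pigr, which carries immunoglobulin A into the mucus, read 352 and 502 FPKM in the PAF KO libraries, against 165 and 163 FPKM in the controls. The gastric trefoil peptide Tff2, a relative of TFF3, read 116 and 18.6 FPKM in the PAF KO libraries, against 1.13 and 1.55 FPKM in the controls.

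Type 2 cytokines are known inducers of RETNLB and CLCA3 in mice. Of 17 genes of that signalling, 11 were tested, 0 were called, 5 were above both controls in both PAF KO libraries and 4 were below. Il13 read 0.296 and 0.823 FPKM in the PAF KO libraries, against 0.824 and 1.55 FPKM in the controls, Il5 was at most 0.347 FPKM in any library, and Il4 was listed at 0 in both PAF KO libraries. Il33, an alarmin upstream of these cytokines, read 103 and 69.3 FPKM in the PAF KO libraries, against 38.6 and 37.6 FPKM in the controls (log2 fold change 1.13, SE 0.256; limma adjusted p = 0.291). Il13ra1 read 48.7 and 57.6 FPKM in the PAF KO libraries, against 36.2 and 33.1 FPKM in the controls, and Stat3 read 51.6 and 48 FPKM in the PAF KO libraries, against 70 and 66.6 FPKM in the controls. Il13ra2 of the same list read 0.529 and 2.91 FPKM in the PAF KO libraries, against 0.477 and 0.225 FPKM in the controls, and so was high mainly in PAF KO library 2. The part of this signalling in the levels of RETNLB and CLCA3 was not tested.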

How the data were processed

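FPKM values for each library stand in 1 table as the authors deposited it. The submitters' processing notes name TopHat2, Cuffdiff and build mm9, with no version, setting or annotation. Since FPKM is scaled for depth and length, no count test was used. The table held 29955 rows, of which 84 repeated a symbol, and of repeats the one higher on average was used. The 10 members and all gene lists were chosen with earlier results of these data known.

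All rows averaging 1 FPKM or more over the 4 libraries were tested on log2(FPKM + 1) with limma (version 3.58.1, R version 4.3.3), with a trend on mean expression, 2-sided, with Benjamini-Hochberg adjustment over 13716 rows and a threshold of 0.05. Fold changes are PAF KO minus control on that scale, which understates changes of low genes. Beside the members, the text names from each list the up to 3 genes of smallest p and the 5 rows nearest to MUC2; Agr3, Atoh1, Xbp1, Gal3st2, Muc6, Tff2, Il13, Il13ra2, Il5, Il4, the markers of other cells and the rows of near-identical copies were added after their values were seen. Symbols, older names and promoters came from RefSeq (GRCm38.p6), and transcripts from GENCODE M21. The value of 1 fragment, and from it depth, was taken as the most common low product of FPKM and kilobases among single-transcript genes of 1000 bases or more; estimated fragment numbers cover counting error only. The steps were checked on simulated data, in 10 sets of 13716 rows with the spread of these libraries. There limma called 1.2% of rows changed by a log2 of 1 and 58.2% of those changed by 2. Unchanged rows gave 8.8 false calls per set. A change of the size seen for MUC2 would therefore rarely be called, and an uncalled gene is not shown to be unchanged. Alternatives were pseudocounts of 0.1 and 10, no filter or a filter at 5 FPKM, median centring, quantile normalization, no trend, a replicate block, each library left out, repeated rows summed, and values relative to 14 epithelial genes.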

Additional observations from a re-analysis of the deposited data

How the results depend on the processing

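With all 4 libraries kept, the 10 members kept their sign and stayed uncalled by limma in all 11 alternatives. The count of 6 separated members held except under quantile normalization (5, without TFF3) and relative to the epithelial genes (7, with CREB3L1). The background above both controls moved too, from 21.5% of tested rows to 29.1% under quantile normalization and 30.2% under median centring. Relative to the epithelial genes it was 54.8%, so the 7 members there are not a stronger result. Relative to the epithelial genes the members' median was 1.04, where the median of all tested rows also moved, to 0.40; FCGBP and ZG16 were then at -0.031 and -0.0093. Over all rows, 0 were called higher and 10 lower; 3 were called lower with a pseudocount of 10 and 4 with no filter. Leaving out 1 library in turn gave 0 to 4676 rows called higher and 0 to 3721 called lower, 0 to 7 members called higher and 0 to 2 called lower, 0 to 2 members below both controls and a members' median of 0.53 to 0.97. Without PAF KO library 1, 7 members were called higher and 2 lower, beside 4676 and 3721 of 13716 rows (34.1% and 27.1%), and without PAF KO library 2, 4 higher and 1 lower, beside 860 and 1973 rows (6.27% and 14.4%), where the lone PAF KO library is assumed to vary like the controls; without either control 0 were called. The same settings moved CLCA3 between -1.55 and 2.14, FCGBP between -1.59 and 0.73 and ZG16 between -1.12 and 0.31, with the sign turned when PAF KO library 2 was left out. The labels number the libraries of each group 1 and 2 without saying that the numbers pair them, and the deviations of same-numbered libraries from their group means correlated at -0.115 across rows. With a replicate block 13 rows were called lower and 0 members were called. With crossed numbers, chosen after seeing the data, 13 rows were called lower. Having 2 libraries a group limits every p-value here.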

Other observations

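Among secreted products outside the 10 members, Ang4, an angiogenin of Paneth and goblet cells, read 103 and 3248 FPKM in the PAF KO libraries, against 393 and 451 FPKM in the controls. Like CLCA3 it was lowest in PAF KO library 1 and highest in PAF KO library 2. Itln1, an intelectin of the same cells, read 281 and 995 FPKM in the PAF KO libraries, against 295 and 294 FPKM in the controls, and so was high in PAF KO library 2 only, as RETNLB was. The guanylin genes split in opposite ways: Guca2a read 245 and 971 FPKM in the PAF KO libraries, against 622 and 716 FPKM in the controls, and Guca2b read 630 and 111 FPKM in the PAF KO libraries, against 366 and 483 FPKM in the controls. Mep1a, a subunit of the meprin proteases, read 4.89 and 26.7 FPKM in the PAF KO libraries, against 72.7 and 69.6 FPKM in the controls, while Mep1b, the subunit known to help release mucus in mice, read 106 and 110 FPKM in the PAF KO libraries, against 125 and 127 FPKM in the controls. These genes were chosen after their values were seen, and limma called none of them (adjusted p = 0.359 for Mep1a and 0.904 for Ang4).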
